A study of Mus musculus with 6 samples.

Results

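The genes described here carry the symbols of potassium, sodium and calcium channel subunits. They were measured by RNA sequencing of islets from FXR+/+ and FXR-/- mice. Members were chosen by gene symbol alone, from families named for pore and auxiliary subunits. These were K+ channels (Kcn followed by a family letter and a number), voltage-gated Ca2+ channels (Cacna1, Cacna2d, Cacnb, Cacng) and voltage-gated Na+ channels (Scn). Roles were also given by symbol, so a role does not show that the product of each gene works in that channel. The ATP-sensitive K+ channel gene Kcnj11 and the L-type Ca2+ channel genes Cacna1c and Cacna1d were left out by name, and their values stand beside the results. Of the 19342 genes counted, 124 were members, of which 90 passed the filter on low counts and 34 did not.

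FXR, encoded by Nr1h4, is a nuclear receptor for bile acids, and the study asked how gene expression in islets differs when it is deleted. There were 6 libraries of islets from mice aged 3 months. Each genotype had 3 libraries, numbered female 1, male 1 and male 2 in the labels. The FXR-/- mice were knockout mice on the C57Bl/6 background and the FXR+/+ mice were their wild-type controls, with no treatment in either group. Islets were freed with collagenase, and the sources used here give neither the number of mice behind a library nor whether the controls were littermates, so p-values measure the spread between these libraries only.

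Beta cells turn glucose metabolism into insulin release through their membrane potential. When ATP-sensitive K+ channels close, the membrane depolarises, voltage-gated Ca2+ channels open and the entering Ca2+ triggers exocytosis, while Na+ channels shape the rising phase of the action potential and voltage-gated and Ca2+-activated K+ channels end it. Two-pore-domain K+ channels carry a background current, and auxiliary subunits change the gating, trafficking or number of the pore subunits they bind.

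The pore subunits of K+ channels share a selectivity filter, the short loop through which K+ passes, and the codons that encode it are the sequence feature that the symbols did not use. They are printed for members on which the results turn, from the coding sequences of GENCODE vM21 in GRCm38, with 12 bases on either side in lower case and the 15 bases that match the filter motif in capitals.
Kcna2: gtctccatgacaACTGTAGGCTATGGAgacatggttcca
Kcnma1: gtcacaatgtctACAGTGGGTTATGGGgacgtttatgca
Kcnj6: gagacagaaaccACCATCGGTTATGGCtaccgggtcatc
Kcnh2: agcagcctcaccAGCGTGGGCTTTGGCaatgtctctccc
Kcnh1: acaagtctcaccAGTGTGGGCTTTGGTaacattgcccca
Kcnh5: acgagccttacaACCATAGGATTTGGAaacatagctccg
Kcnh8: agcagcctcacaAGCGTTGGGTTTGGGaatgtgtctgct

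These stretches lie on the minus strand at chr14:23528401-23528439 for Kcnma1, chr16:94832765-94832803 for Kcnj6, chr5:24325543-24325581 for Kcnh2 and chr12:75087454-75087492 for Kcnh5. They lie on the plus strand at chr3:107105212-107105250 for Kcna2, chr1:192337742-192337780 for Kcnh1 and chr17:52877979-52878017 for Kcnh8, and all are coding exon sequence. An in-frame search for the letters ACNNNNGGNTNNGGN, whose first codon is threonine, or NNNGTNGGNTTNGGN found at least 1 match in 70 of 74 K+ pore genes. Kcnn1, Kcnn2, Kcnn3 and Kcnj14 held no such letters. Of the 14 genes for K+ channel auxiliary subunits none held a match, and among 16 Ca2+ and Na+ pore genes 1 did, against 3.09% of 21548 genes with a coding sequence. A match describes the letters alone.

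Library totals ran from 20629306 to 30139235 counts, of which the members took between 0.144% and 0.185%. Nr1h4 was at 14.2, 13.6 and 12.2 counts per 1000000 (CPM, scaled after TMM normalization) in FXR+/+ female 1, male 1 and male 2, and at 5.67, 7.62 and 5.80 CPM in the FXR-/- libraries in the same order. Its exon at chr10:89454234-89454948 held 73, 56 and 81 counts in FXR+/+ and 0 in each FXR-/- library. The beta cell markers were present throughout, at a summed 185600 to 269900 CPM, led by the insulin gene Ins2. Markers of exocrine acinar cells summed to 52180, 141200 and 47010 CPM in the FXR+/+ libraries and to 66560, 160700 and 94640 CPM in the FXR-/- libraries, so that every FXR-/- library stood above the FXR+/+ library of the same number. Of 20 acinar markers 18 had a fold change above 0, and the same held for all 8 endothelial markers (summed 548 to 652 CPM in FXR+/+, 671 to 1089 in FXR-/-), all 12 stellate and fibroblast markers (176 to 302 against 268 to 344), 7 of 9 macrophage markers (112 to 151 against 149 to 176), 7 of 8 ductal markers (355 to 604 against 414 to 711) and 7 of 10 Schwann cell and neuron markers (306 to 320 against 268 to 328). Also above 0 were 6 of 8 beta cell markers, 4 of 6 alpha cell markers and 5 of 6 delta and PP cell markers. Of the 5 lymphocyte markers tested, 0 had a fold change above 0. The lists for non-endocrine cells hold genes that islet cells also express. The part of any cell type in the channel values was not tested except where a fit with an acinar term is named.

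A few genes carried most of the channel transcripts. Levels between genes are given as CPM per kilobase of exon model, since longer transcripts give more reads. In FXR+/+ islets the 10 highest members took 66.2% of the sum over all members on this scale. Kcnk16, the alkaline-activated two-pore-domain K+ channel known from beta cells, led with 67.6 ± 4.16 CPM per kilobase (SD, n = 3). Next came Kcnmb2, the auxiliary subunit that inactivates the large-conductance Ca2+-activated K+ channel, at 37.8 ± 7.13, and Kcnh2, the ERG channel that repolarises the action potential, at 29.8 ± 0.794. Kcnip1, a Ca2+ sensor that binds the A-type channels, stood at 23.2 ± 1.15. Cacnb3, Kcnh6 and Cacna2d1 followed within one another's spread, at 21.9 ± 1.08, 21.8 ± 3.97 and 20.4 ± 1.47. Kcnn3, a small-conductance Ca2+-activated K+ channel, was at 15.2 ± 1.22, the two-pore-domain gene Kcnk1 at 12.6 ± 0.783 and Cacna1a, the P/Q-type Ca2+ pore, at 12.3 ± 1.22.

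**Figure D1:**
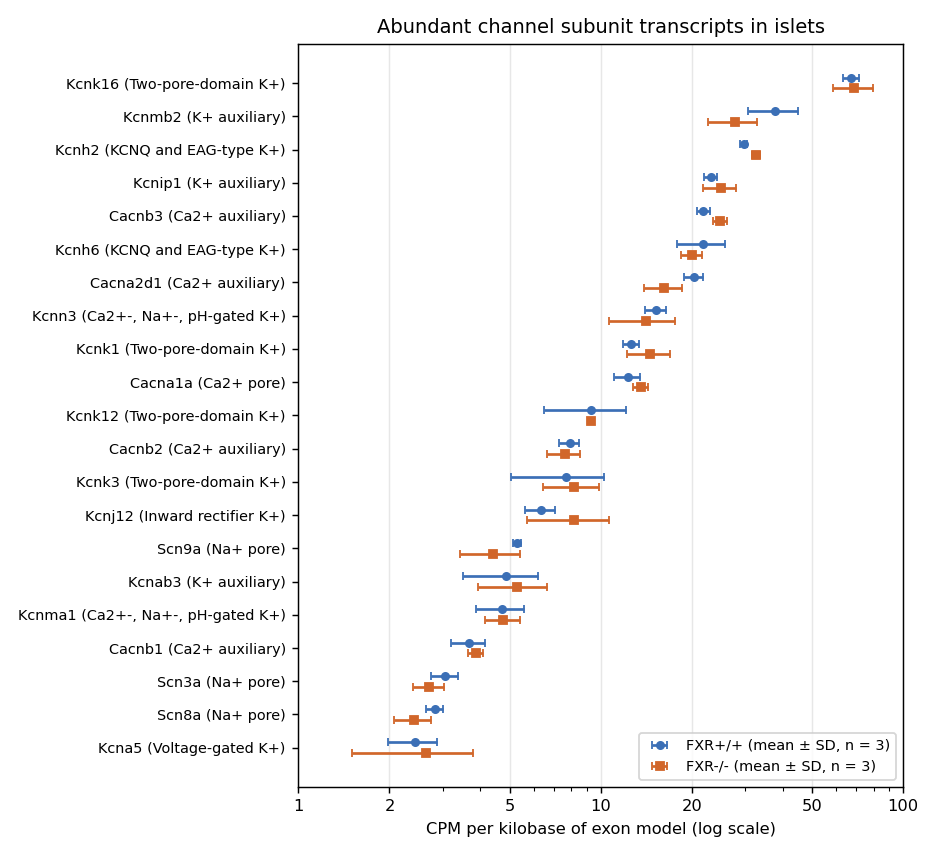
CPM per kilobase of exon model, on a log axis, for 21 of the 24 members with the highest level in FXR+/+ islets, as mean and SD of the 3 libraries of each genotype, FXR+/+ in blue and FXR-/- in orange, with the role in brackets. Kcnk16 leads at 67.6 and 69.1, Kcna5 closes the list at 2.43 and 2.65, and Kcnmb2 and Cacna2d1 lie to the left in FXR-/- islets.

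Summed over the members, the level was 1703, 1711 and 1661 CPM in FXR+/+ female 1, male 1 and male 2 and 1720, 1615 and 1681 CPM in the FXR-/- libraries. The ranges overlapped, and the means of 1692 ± 27.03 and 1672 ± 53.2 CPM (SD, n = 3) gave an exact two-sided permutation p of 0.7, where the smallest p that 3 against 3 libraries allow is 0.1. In whole islets, fewer cells of a type and less RNA per cell cannot be told apart.

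No channel gene passed the main test for genotype, which had no term for the replicate number. With edgeR's quasi-likelihood test, with terms for sex and genotype over all 14619 genes, 0 of 90 members had an adjusted p under 0.05, as had 0% of all genes, and the lowest adjusted p among members in edgeR was 0.240. Nr1h4, the deleted gene, was not called either, with a log2 fold change of -1.07 ± 0.16 (SE) and an adjusted p of 0.215 in edgeR. An unadjusted p under 0.05 was reached by 12 of 90 members, or 13.3%, beside 10.3% of all genes tested. Of these 7 were higher in FXR-/- islets, where all genes gave 6.18%, and 5 were lower, where all genes gave 4.16%. Without FXR+/+ male 1 the members at this level were 16 higher and 3 lower. All genes at this level then numbered 2175, 58.8% of them higher, against 1511 and 59.8% in the main fit. The 3 FXR-/- libraries stood entirely above or below the 3 FXR+/+ libraries for 14 members, or 15.6%, beside 15.4% of all genes. Both shares were thus near the background.

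Other tools gave few calls. DESeq2 called 2 members, Kcnmb2 and Kcnh1, with 1.06% of all genes called. It had 12 members at an unadjusted p under 0.05, among 1330 genes at that level. Blocking on the replicate number in edgeR called 1 member, Kcnh1, with 0.164% of all genes called, and put 17 members at an unadjusted p under 0.05 (12 higher and 5 lower), beside 16.1% of all genes. Adding the acinar marker level as a covariate also called 1 member, Kcnh1, with 0.0479% of all genes called. The block and the acinar covariate each left fewer residual degrees of freedom than the main fit. The acinar level was itself taken from these counts and was higher in every FXR-/- library than in the FXR+/+ library of its number. Scaling by library size alone split the 12 members at an unadjusted p under 0.05 into 6 higher and 6 lower, and moved the share of higher genes among all genes at that level from 59.8% to 29.1%. All genes then had a median log2 fold change of -0.09, against 0.01 after TMM normalization.

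**Figure D2:**
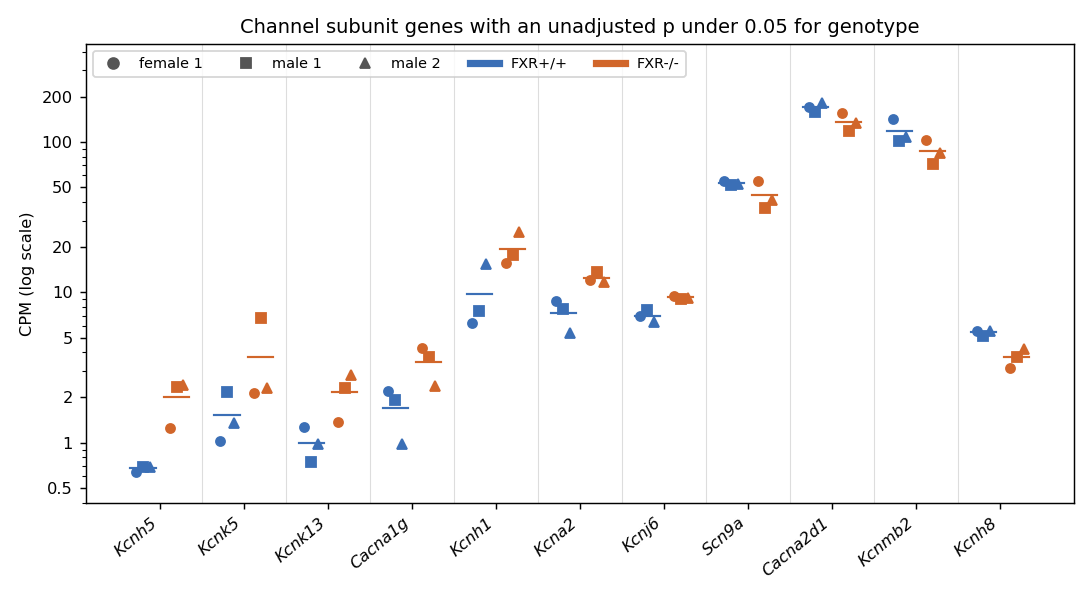
CPM in each library, on a log axis, for 11 of the 12 members with an unadjusted p under 0.05 for genotype, ordered by log2 fold change, with FXR+/+ in blue, FXR-/- in orange, 1 symbol shape per replicate number and a bar at each mean of 3 libraries. The 3 FXR-/- libraries of Kcnh5 sit between 1.26 and 2.44 CPM, all above the FXR+/+ libraries, whereas those of Kcnmb2 sit between 72.0 and 104 CPM and overlap them.

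The channels of the ether-a-go-go type held the member with the lowest p and 3 of the 12. Kcnh1, the founding EAG channel, which opens on depolarisation without inactivating, was at 6.26, 7.48 and 15.4 CPM in FXR+/+ female 1, male 1 and male 2 and at 15.6, 17.7 and 25.2 CPM in FXR-/-. FXR+/+ male 2 stood apart from the other controls, near the lowest FXR-/- library, and the groups did not overlap. The log2 fold change was 1.03 ± 0.27 (SE), with an adjusted p of 0.369 in edgeR. Within the pairs of equal number the FXR-/- library was 2.49-fold (female 1), 2.36-fold (male 1) and 1.63-fold (male 2) higher. The adjusted p was 0.0436 in edgeR with the replicate block, 0.0350 in DESeq2 and 0.0161 in edgeR with the acinar term, where the log2 fold change was 1.43. Without FXR+/+ male 2 the log2 fold change was also 1.43, with an adjusted p of 0.262 in edgeR. Most of the exon counts, 93.4%, fell in the last exon at chr1:192505264-192510159, and all 3 exons with at least 20 counts were higher in FXR-/-, by 2.04-fold to 2.28-fold. These exon counts came to 1533, against 2106 gene counts.

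Kcnh5, the other EAG channel, was scarce, with raw counts of 15, 14 and 22 in FXR+/+ and 31, 45 and 58 in FXR-/-. These gave 0.639, 0.694 and 0.694 CPM against 1.26, 2.37 and 2.44 CPM, with the FXR-/- female lowest of its group and no overlap. The log2 fold change was 1.54 ± 0.29 (SE), with an unadjusted p of 0.000981 and an adjusted p of 0.240 in edgeR. Kcnh8, of the slowly activating ELK branch, went the other way: it was at 5.58, 5.15 and 5.55 CPM in FXR+/+ and at 3.16, 3.73 and 4.21 CPM in FXR-/-, with a log2 fold change of -0.56 ± 0.17 (SE) and an adjusted p of 0.430 in edgeR. The ERG channel genes Kcnh2 and Kcnh6 were by far the most abundant of the family. Kcnh2 was at 139, 142 and 135 CPM in FXR+/+ and at 147, 156 and 152 CPM in FXR-/-, slightly higher in every FXR-/- library than in every control, with a log2 fold change of 0.13 ± 0.07 (SE) and an unadjusted p of 0.114 in edgeR. Kcnh6 overlapped, with a log2 fold change of -0.11 ± 0.13. Among the KCNQ channels, Kcnq1 stood at 2.20 CPM per kilobase in FXR+/+, with a log2 fold change of 0.07 ± 0.33. Of the 13 members of this role 11 passed the filter, 8 with a fold change above 0.

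FXR can bind DNA at the nuclear receptor half-site AGGTCA and at its inverted repeat spaced by 1 base, AGGTCANTGACCT. RefSeq promoter windows of GRCm38.p6, 250 bases before to 50 after a gene's start, were found for 92 member genes, in 124 windows. The half-site on either strand was in 9 of these windows, or 7.26%, against 16.3% of 32851 windows of all genes. The inverted repeat, which contains the half-site on both strands, was in 0 of the 124, against 0.00913% of all windows. Kcnh1 held 1 half-site, on the minus strand, beginning 223 bases before the RefSeq start used for its window. It is printed in capitals with 12 bases on either side, from chr1:192190542-192190571 on the plus strand. The gene span of Kcnh1 begins earlier, at 192189144, so this stretch lies within the locus. Kcnh5, Kcnh8 and Kcnmb2 held no half-site in their windows.
Kcnh1: agagtcttcttgTGACCTtttcgggtgtgt

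Among the other voltage-gated K+ channels, Kcna2 had groups that stood apart. Kcna2, a Shaker-type delayed rectifier of axons, was at 8.82, 7.78 and 5.36 CPM in FXR+/+ and at 12.1, 13.8 and 11.7 CPM in FXR-/-. Its groups did not overlap, and the log2 fold change was 0.79 ± 0.19 (SE), with an adjusted p of 0.334 in edgeR and 0.0532 in DESeq2. Kcna5 and Kcng3 had log2 fold changes of 0.13 ± 0.32 and -0.12 ± 0.19 (SE). Of 25 members 15 passed the filter, 11 with a fold change above 0 and a median log2 fold change of 0.23, and all 25 together summed to 224 ± 3.06 CPM in FXR+/+ and 222 ± 6.39 CPM in FXR-/-.

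For the large-conductance Ca2+-activated K+ channel, Kcnmb2 had a lower mean in FXR-/- islets and Kcnma1 did not, a contrast that was not tested. Kcnmb2, the channel's most abundant auxiliary subunit, was at 144, 102 and 108 CPM in FXR+/+ and at 104, 72.0 and 85.3 CPM in FXR-/-. The female was highest in each genotype, and the FXR-/- female overlapped the FXR+/+ males, while each FXR-/- library was at 0.722-fold, 0.703-fold and 0.788-fold of the FXR+/+ library of its number. The log2 fold change was -0.44 ± 0.09 (SE), with an adjusted p of 0.264 in edgeR, 0.0755 with the replicate block and 0.00357 in DESeq2. Of its exon counts 92.0% fell in 1 exon, chr3:32198075-32200180, with 1824, 1010 and 1970 counts in FXR+/+ and 1365, 673 and 1039 in FXR-/-. Its exon counts came to 8566, against 14829 gene counts. Of its 4 exons with at least 20 counts, 3 were lower in FXR-/- and 1 was higher, by 1.47-fold. The pore gene Kcnma1 was at 61.1 ± 11.2 CPM in FXR+/+ and 61.5 ± 8.15 CPM in FXR-/- (SD, n = 3), a log2 fold change of 0.00 ± 0.15 (SE).

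Among the small- and intermediate-conductance Ca2+-activated channels, Kcnn3 and Kcnn2 had log2 fold changes of -0.11 ± 0.16 and -0.03 ± 0.14 (SE). Kcnn4, the intermediate-conductance channel, was at 1.66, 1.93 and 0.946 CPM in FXR+/+ and at 2.23, 2.37 and 2.10 CPM in FXR-/-, without overlap, with a log2 fold change of 0.59 ± 0.31 (SE) and an unadjusted p of 0.0938 in edgeR. Its fold change on this scale was 0.30 without FXR+/+ male 2, 0.33 with the acinar term and 1.19 from exon sums. Kcnu1, whose channel is known from sperm, was at 2.00 CPM per kilobase in FXR+/+, with a log2 fold change of -0.09 ± 0.17. Of the 8 members of this role 7 passed the filter, 2 of them with a fold change above 0.

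Among the other auxiliary subunits of K+ channels, Kcnip1 and Kcnab3 were near the control level. Kcnip1 had a log2 fold change of 0.10 ± 0.11 (SE), Kcnab3, a cytoplasmic beta subunit, one of 0.12 ± 0.13, and Kcnip4 one of -0.27 ± 0.14. Kcnip1 shares its locus with Kcnmb1 in the annotation, although 0 of its 2520 50-base transcript stretches occur in another gene. Kcnab2 did not overlap between genotypes, with a mean of 4.65 CPM in FXR+/+ and 6.001 CPM in FXR-/-. Of 14 members 11 passed, 6 with a fold change above 0.

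Of the inward rectifiers, whose channels pass K+ more readily inward, the G-protein-gated Kcnj6 was at 6.99, 7.63 and 6.34 CPM in FXR+/+ and at 9.51, 9.09 and 9.17 CPM in FXR-/-. The FXR-/- libraries lay close together and above all controls, and the log2 fold change was 0.41 ± 0.14 (SE), with an adjusted p of 0.432 in edgeR. Kcnj3, which forms channels with Kcnj6, had one of 0.26 ± 0.19 and Kcnj4 one of -0.17 ± 0.26. Kcnj12, a strong rectifier, led the role at 6.35 ± 0.738 CPM per kilobase in FXR+/+ and 8.18 ± 2.49 in FXR-/- (SD, n = 3), with overlap. Of 14 members 9 passed, 6 above 0. The ATP-sensitive channel, left out of the count, was level in its values: its pore gene Kcnj11 was at 173 ± 7.71 and 175 ± 11.1 CPM and its sulfonylurea receptor gene Abcc8 at 1144 ± 88.3 and 1204 ± 46.2 CPM, with log2 fold changes of 0.02 ± 0.08 and 0.08 ± 0.13 (SE). The log2 fold change of Abcc9, the other receptor subunit, was 0.13 ± 0.17.

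Among the two-pore-domain channels the abundant genes were near the control level and the scarcer Kcnk13 and Kcnk5 had higher means. Kcnk16 was at 149, 168 and 164 CPM in FXR+/+ and at 137, 171 and 185 CPM in FXR-/-, so that the groups overlapped, with a log2 fold change of 0.02 ± 0.09 (SE). Kcnk1, Kcnk3 (an acid-sensitive channel) and Kcnk12 had log2 fold changes of 0.20 ± 0.13, 0.13 ± 0.18 and -0.00 ± 0.20. Kcnk13, a halothane-inhibited channel known from microglia, was at 1.28, 0.743 and 0.978 CPM in FXR+/+ and at 1.38, 2.31 and 2.82 CPM in FXR-/-, with the FXR-/- female just above the FXR+/+ female. Its log2 fold change was 1.08 ± 0.36 (SE), with an adjusted p of 0.432 in edgeR. Kcnk5, an alkaline-activated channel of epithelia, was at 1.02, 2.18 and 1.36 CPM in FXR+/+ and at 2.15, 6.78 and 2.31 CPM in FXR-/-. Male 1 was highest in each genotype, as it was for the acinar markers, and the groups overlapped. The log2 fold change was 1.28 ± 0.43 (SE), with an adjusted p of 0.434 in edgeR. It was 0.80 with the acinar term and 0.67 without FXR-/- male 1. Of 14 members 9 passed, 8 with a fold change above 0.

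**Figure D3:**
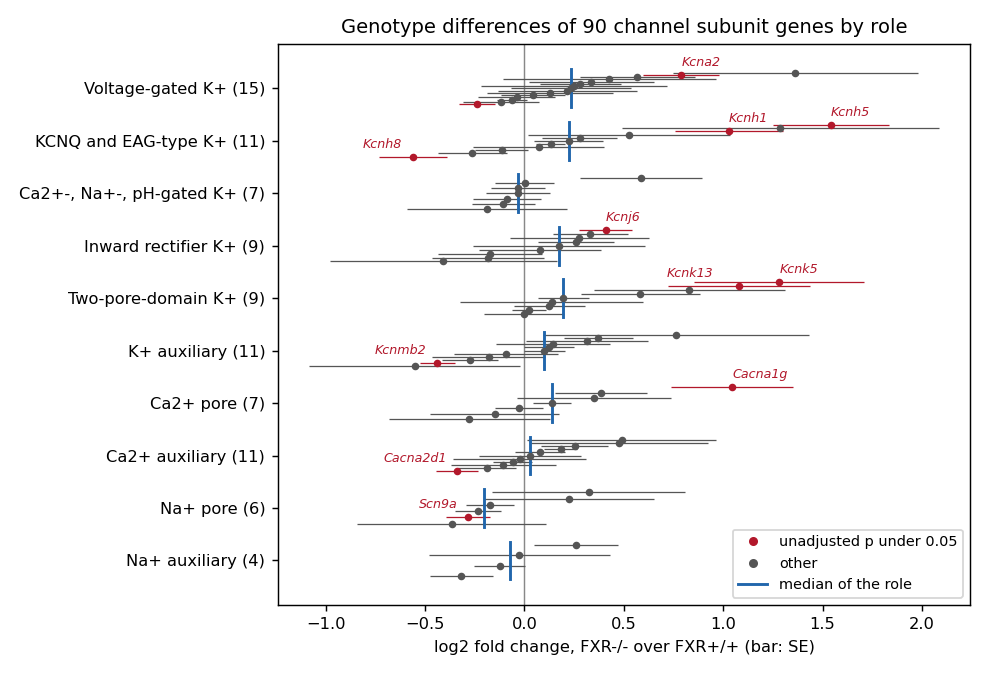
Log2 fold change of FXR-/- over FXR+/+ with its SE for each of the 90 members that passed the filter, by role, with the number of genes in brackets, the 12 members at an unadjusted p under 0.05 in red and the median of each role as a blue line. The medians run from -0.20 for Na+ pore genes to 0.23 for the voltage-gated K+ genes, and most bars cross 0.

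Of the Ca2+ pore genes Cacna1a was at 97.6 CPM in FXR+/+ and 108 CPM in FXR-/-, with a log2 fold change of 0.14 ± 0.10 (SE), and Cacna1b, the N-type pore, had one of -0.03 ± 0.12. Cacna1g, a T-type pore that opens at low voltage, was at 2.22, 1.93 and 0.978 CPM in FXR+/+ and at 4.25, 3.73 and 2.40 CPM in FXR-/-. Male 2 was lowest in each genotype, the groups did not overlap, and the log2 fold change was 1.05 ± 0.31 (SE), with an adjusted p of 0.427 in edgeR and 0.0872 with the replicate block. The other T-type genes, Cacna1h and Cacna1i, had log2 fold changes of 0.39 ± 0.23 and -0.15 ± 0.33. The L-type pore genes of beta cells were beyond the symbol rule: Cacna1c had a log2 fold change of 0.13 ± 0.09, and Cacna1d one of -0.32 ± 0.11, with an adjusted p of 0.445 in edgeR. Cacna1d was at 156, 131 and 163 CPM in FXR+/+ and at 139, 107 and 117 CPM in FXR-/-, with overlap through the female. Of 8 Ca2+ pore members 7 passed, 4 above 0.

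Among the auxiliary subunits of Ca2+ channels, Cacna2d1, which brings pore subunits to the membrane and binds gabapentin, was at 171, 159 and 183 CPM in FXR+/+ and at 157, 118 and 133 CPM in FXR-/-. All FXR-/- libraries were below all controls, by the least in the female, and the log2 fold change was -0.34 ± 0.11 (SE), with an adjusted p of 0.430 in edgeR. Cacnb3, a cytoplasmic beta subunit, was at 65.4, 67.6 and 61.3 CPM in FXR+/+ and at 69.1, 74.3 and 77.1 CPM in FXR-/-, again without overlap, with a log2 fold change of 0.18 ± 0.08 (SE) and an unadjusted p of 0.0570. Cacnb2 and Cacnb1 had log2 fold changes of -0.06 ± 0.10 and 0.08 ± 0.13, and the locus of Cacnb1 overlaps that of the ribosomal protein gene Rpl19 in the annotation. Of 16 members 11 passed, 6 above 0.

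Most Na+ pore genes had a fold change below 0. Scn9a, the most abundant Na+ pore gene, was at 54.9, 51.8 and 52.6 CPM in FXR+/+ and at 55.4, 36.4 and 41.0 CPM in FXR-/-. The FXR-/- female was the highest of all 6 libraries and the FXR-/- males the lowest. The log2 fold change was -0.28 ± 0.11 (SE), with an adjusted p of 0.466 in edgeR, and it was -0.43 with either female left out. Of its 50-base stretches 5.32% occur in other genes, among them Scn3a. Scn8a was at 32.3, 35.5 and 36.5 CPM in FXR+/+ and at 34.5, 26.7 and 28.1 CPM in FXR-/-, a log2 fold change of -0.23 ± 0.12, and Scn3a and Scn7a had log2 fold changes of -0.17 ± 0.12 and 0.32 ± 0.49. The log2 fold changes of the auxiliary genes Scn3b, Scn2b and Scn4b were -0.32 ± 0.16, 0.26 ± 0.21 and -0.02 ± 0.46. The pore genes summed to 120, 126 and 118 CPM in FXR+/+ and to 124, 90.5 and 101 CPM in FXR-/-. Of 8 pore genes 6 passed, 2 above 0, and of 4 auxiliary genes all passed, 1 above 0.

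Over the 90 members the median log2 fold change was 0.13, with 54 above 0 and 36 below, against 0.01 for all 14619 genes, of which 51.6% were above 0. The median of members lay with the scarce genes. It was 0.20 in the 30 members of lowest mean level (0.370 to 2.01 CPM), 0.22 in the next 30 (2.12 to 8.12 CPM) and 0.00 in the 30 highest (8.17 to 162 CPM), while all genes in these ranges had medians of 0.10, 0.05 and -0.01. Within pairs of equal number the median over members was 0.10 for female 1, -0.03 for male 1 and 0.18 for male 2. With the acinar covariate it was 0.01, and without FXR+/+ male 2 it was -0.00.

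The genes outside the rule that work with these channels also gave 0 adjusted calls in edgeR. An unadjusted p under 0.05 was seen for 1 of 5 ATP-sensitive and L-type subunit genes, 4 of 20 other plasma membrane channels, 2 of 23 regulators that bind channel subunits and 4 of 23 genes for pumps, exchangers and Ca2+ release, beside 10.3% of all genes. The lowest p was that of Itpr2, an inositol trisphosphate receptor of the endoplasmic reticulum, at 34.16, 41.06 and 35.96 CPM in FXR+/+ and 25.5, 27.4 and 26.2 CPM in FXR-/-, without overlap. Its log2 fold change was -0.49 ± 0.09 (SE), with an adjusted p of 0.224 in edgeR, 0.0755 with the replicate block and 0.00613 in DESeq2, which called no other partner gene. Lower values were also measured for the Na+ leak channel Nalcn (log2 fold change -0.22 ± 0.09), the cation channel Trpm2 (-0.38 ± 0.15), the Na+ channel partner Fgf12 (-0.38 ± 0.15), the exchanger Slc24a2 (-0.30 ± 0.12) and the Ca2+ store sensor Stim2 (-0.24 ± 0.10). Higher values were measured for the pacemaker channel Hcn2 (0.25 ± 0.09), the Ca2+-activated chloride channel Ano1 (0.47 ± 0.15) and the Ca2+ pump Atp2b2 (0.23 ± 0.09).

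Sex, a term of the same fit, gave 0 adjusted calls among members in edgeR, beside 0.0547% of all genes, with a lowest adjusted p of 0.393. In the same fit 12 of 90 members had an unadjusted p under 0.05, beside 7.5% of all genes. DESeq2 called 3 by sex, Kcnab3, Kcnj3 and Kcnmb2, with 0.506% of all genes called. Kcnj3 was at 9.33 and 8.95 CPM in the FXR+/+ and FXR-/- females and between 3.44 and 5.89 CPM in the 4 males, a log2 fold change of 0.97 ± 0.20 (SE) for female over male, although 29.3% of its 50-base stretches occur in another gene. Kcnab3 was at 8.56 and 9.72 CPM in the females and between 13.1 and 16.6 CPM in the males, a log2 fold change of -0.69 ± 0.14. Neither overlapped between the sexes, whereas Kcnmb2, with a log2 fold change of 0.42 ± 0.09, did. Only 2 libraries were female, and both had the highest summed alpha cell markers, at 38190 and 38780 CPM against 22070 to 30400 CPM in the males, whose part in these values was not tested.

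**Figure D4:**
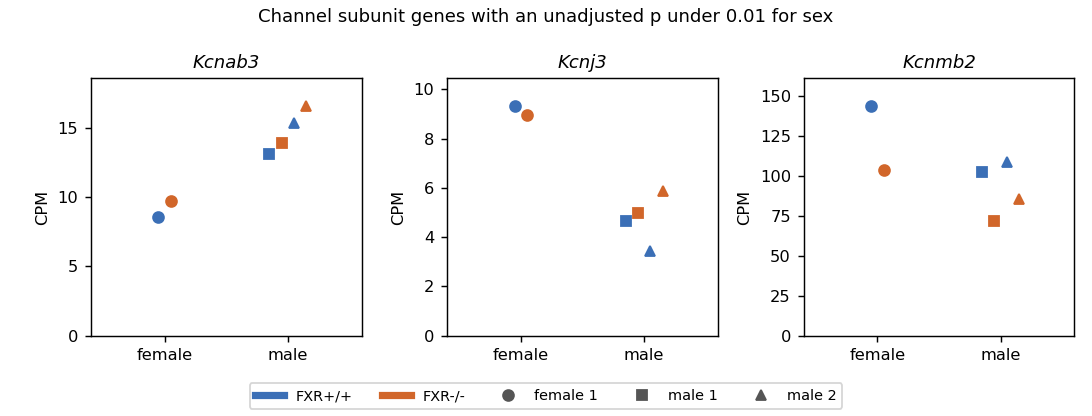
CPM in the 2 female and 4 male libraries for 3 of the 4 members with an unadjusted p under 0.01 for sex, with FXR+/+ in blue, FXR-/- in orange and 1 symbol shape per replicate number. Kcnab3 is lower in both females than in all males, Kcnj3 is higher, and for Kcnmb2 the FXR-/- female at 104 CPM lies between the FXR+/+ males.

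The test of whether the genotype difference varied with sex gave 0 adjusted calls among members, as among all genes (0%), in edgeR. Scn8a was the 1 member with an unadjusted p under 0.05, beside 1.48% of all genes. This fit had 1 female per genotype and 2 residual degrees of freedom.

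Of the 34 members that did not pass the filter, 33 stayed under 1 CPM in every library and 16 had fewer than 10 counts over the 6 libraries together, while none was at 0 throughout. They included Kcnv1, Kcnj1, Kcnk7 and Cacng6, with 1 count each, and Cacna1s, the Ca2+ pore of skeletal muscle, with 10. Fitted without a filter, 0 of the 34 had an unadjusted p under 0.05 in edgeR, and DESeq2 gave 0 as well. The highest single value was that of the G-protein-gated Kcnj5, with 10, 2 and 10 counts in FXR+/+ and 45, 2 and 11 in FXR-/-, where the FXR-/- female stood apart.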

How the data were processed

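Islet mRNA was enriched with oligo(dT), and the authors deposited whole-number counts per gene and per exon, without normalization. HISAT is named in the submitters' processing notes, and its version, the counting tool and the use of strand are not given in the sources used here. The exon positions are those of GRCm38, and exon counts sum to 32.3% to 36.6% of gene counts. The authors' DESeq comparisons (means, fold changes, p-values and q-values) were not used. Columns per sample left unused numbered 0.

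The test on gene counts was edgeR 4.0.16 (R 4.3.3): filterByExpr by genotype (minimum count 10, total 15), TMM, glmQLFit and glmQLFTest, a design of sex plus genotype (3 residual degrees of freedom), and Benjamini-Hochberg adjustment over 14619 genes at 0.05. DESeq2 1.42.0 was an alternative. CPM are counts scaled to 1000000 after TMM, divided by exon model length in kilobases where genes are compared. SEs come from the F statistic. The fit was tested on simulated data. The permutation tests covered all 20 relabellings of log2(CPM + 0.5) or summed CPM. Library totals of 20629306 to 30139235 counts set the precision, and replicates differed far beyond sampling noise (chi-square per degree of freedom 38.4 or more).

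Groups, sex and replicate numbers came from the labels. Deviations of same-numbered libraries correlated at 0.373, 0.419 and 0.346 (female 1, male 1, male 2) and those of different numbers at 0.0628 or less, so the numbers were taken to pair the libraries, although the labels do not say what a number marks. Deviations from a group mean sum to 0, so a high correlation for the same number lowers those for other numbers. The pairing was taken from the same counts that the replicate block used, and was not tested apart from them. The symbol rule that defines the members, and the gene lists, were set with earlier results of these data known. Named are members with an unadjusted p under 0.05, those with groups apart by a log2 fold change of 0.5 or more, the 4 highest per kilobase in each role, and those with a p under 0.01 for sex or the interaction. Kcnab2, Kcnj5, and the members given with 1 or 10 counts in all, were named after their values were seen. Some members and partner genes that the rule names are not reported here, though they remain in the counts. The alternatives were no sex term, a replicate block, males alone, DESeq2, other scalings and filters, exon sums, the log2 summed acinar level as a covariate, and leaving out single libraries.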

Additional observations from a re-analysis of the deposited data

How the results depend on the processing

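The calls depended on the tool and on terms of the fit more than on the scaling or filter. Against 0 genes called by genotype over all genes, the fit with a replicate block called 24, DESeq2 158, the exon counts summed per gene 4 and the term for acinar RNA 7. Among channel genes the replicate block called 1, the acinar term 1 and DESeq2 2, and by sex DESeq2 called 3. The replicate block changed no other call among the channel genes. Channel genes at an unadjusted p under 0.05 numbered 12, and 9 to 19 with 1 library left out, the most without FXR+/+ male 1 (19). All genes at that level numbered 1511, and with 1 library left out 862 (without FXR-/- male 1) to 2175 (without FXR+/+ male 1). Partner genes at that level numbered 11, but 5 in males alone, 7 with the acinar term, and 4 to 10 with 1 library left out: 4 without FXR-/- male 2, 5 without FXR+/+ female 1, FXR+/+ male 2 or FXR-/- female 1, and 6 without FXR-/- male 1. With either female left out, the other female carried no information on genotype in the fit with sex. The median log2 fold change of channel genes, 0.125, was 0.00539 with the acinar term and ran from -0.0016 (without FXR+/+ male 2) to 0.145 with 1 library left out. The summed level in FXR+/+ was 1692 CPM, and 1749 with scaling by library size alone. The causes were not tested. For 13 channel genes named for their genotype values, 217 values under the alternatives had the direction and the side of the threshold of the main fit, 4 values of 2 genes (Kcnh1 and Kcnmb2) passed it, and none reversed. These genes were picked by their values in the main fit and the alternatives reuse its counts, so the tally is no independent check. Males alone and the fits without either female rest on the same male libraries for genotype. The legacy dispersion estimates of edgeR, chosen as an alternative after seeing the data, called 0 channel genes. With 3 libraries per genotype and low counts, differences in scarce genes such as Kcnh5 were measured with wide errors.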
